A study of Gallus gallus with 4 samples.

Results

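GGLTR8A, GGLTR8B and GGLTR9 are 3 families of chicken long terminal repeats (LTRs), taken here as every transposable element (TE) row whose name starts with GGLTR8 or GGLTR9, which gave 3 of 241 TE rows and 3 of 24689 rows in all. Small RNA of 19 to 38 nucleotides came from the cranial midbrain of wild-type Gallus gallus embryos, the chick, at stage HH9-, incubated for about 30 h at 37 °C. Each RNA sample was split into a portion oxidized with sodium periodate and an untreated portion, called total here, which gave 2 oxidized and 2 total libraries and 6 count tables for each library. Periodate attacks RNAs whose last ribose is free. PIWI-interacting RNAs (piRNAs) carry a methyl group on the 2′ oxygen of that ribose and withstand the treatment. The labels do not tell whether different embryos went into the replicates, and a p-value here reflects only how far these libraries vary, which may be technical. For the level of an RNA in a dissected tissue, fewer cells that make it and less of it per cell cannot be told apart. That limit concerns levels and differences between replicates, not the portions of a split RNA sample.

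LTRs are the terminal repeats that flank an endogenous retrovirus. They carry its promoter and its end-processing signals, and many copies in a genome are solitary LTRs left after the internal coding part was lost by recombination. piRNAs are loaded onto PIWI proteins and guide them to transposon transcripts, chiefly through sequence antisense to the element. In animals they are best known from the germ line. No internal part under a GGLTR8 or GGLTR9 name stands in the TE tables, whereas other LTR families such as GGLTR7 and GGLTR10D have one.

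Depth, the reads assigned to a row over the 6 tables, was 10981001 for oxidized replicate 1 and 14081954 for oxidized replicate 2. It was 17962725 for total replicate 1 and 14946049 for total replicate 2. Levels are given as counts per 1000000 of these assigned reads (CPM), so a change in CPM is a change in the share of a library. TE reads took 48.5% and 46.1% of the oxidized libraries and 0.868% and 1.01% of the total libraries. The gene and miRNA tables list Ensembl IDs, none of which (0 of 24356) had a name in the table of gene names used here, so the dissected tissue was not checked against marker genes.

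All 3 families were read in both total libraries and all but vanished after oxidation. GGLTR8B, the most abundant of the 3, had 115 and 138 reads in total replicates 1 and 2, and 2 reads in each oxidized library. GGLTR8A was read 78 and 81 times before oxidation and not at all in either oxidized library. GGLTR9, the scarcest, was read 14 and 26 times before oxidation and had an unstranded count of 0 after it. Its reverse-strand count in oxidized replicate 2 was 1. Every total library thus lay above every oxidized library for each family.

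**Figure D1:**
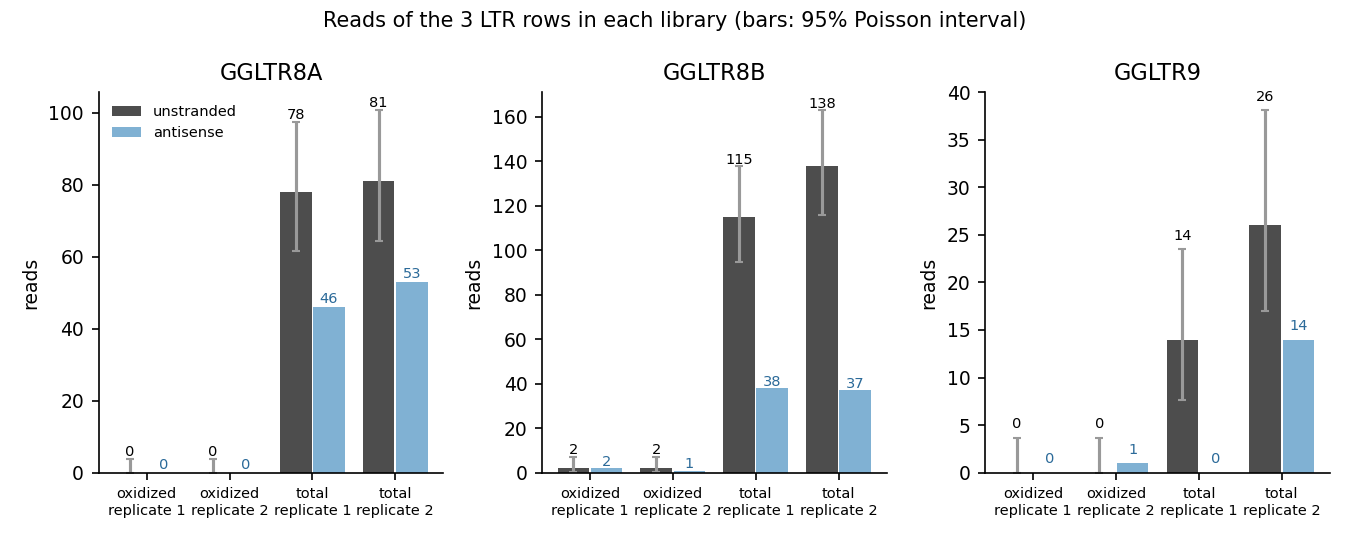
Reads of GGLTR8A, GGLTR8B and GGLTR9 (vertical axis, reads) in the 4 libraries, as deposited, with unstranded reads in dark bars and antisense reads in light bars; error lines are 95% Poisson intervals of the unstranded reads. The total libraries hold 14 to 138 unstranded reads per family and the oxidized libraries 0 to 2, and GGLTR9 has 1 antisense read in oxidized replicate 2 where its unstranded count is 0.

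In CPM, GGLTR8B stood at 7.82 ± 2.002 in the total libraries (mean ± SD, n = 2), GGLTR8A at 4.88 ± 0.762 and GGLTR9 at 1.26 ± 0.679. The order of the levels was the same in both total libraries, with GGLTR8B at 6.40 and 9.23 CPM, GGLTR8A at 4.34 and 5.42 CPM and GGLTR9 at 0.779 and 1.74 CPM. The 95% Poisson intervals of GGLTR8A and GGLTR8B overlapped in total replicate 1 (3.43 to 5.42 and 5.29 to 7.68 CPM) and not in total replicate 2 (4.30 to 6.74 and 7.76 to 10.9 CPM). These intervals cover counting error only. Over 2831 features the total replicates differed by far more than counting error (chi-square per degree of freedom 116). Means of GGLTR8A and GGLTR8B differed by 2.94 CPM, more than either SD. GGLTR9 lay below both in each library, with an upper bound of 1.31 CPM in total replicate 1 and 2.55 CPM in total replicate 2. Within the TE table GGLTR8B ranked 54th, GGLTR8A 64th and GGLTR9 87th of 241 rows by mean CPM in the total libraries. Among the 36 other rows named GGLTR, 6 lay above GGLTR8B, 13 above GGLTR8A and 20 above GGLTR9, so GGLTR8B was among the more abundant of them before oxidation and GGLTR8A and GGLTR9 lay nearer the middle.

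The total replicates did not hold equal shares of these families. Summed over the 3 families, total replicate 1 held 207 reads (11.5 CPM, 95% Poisson interval 10.01 to 13.2) and total replicate 2 held 245 reads (16.4 CPM, 14.4 to 18.6). Counting error, with reads taken as independent, does not cover this gap. The summed reads of the other GGLTR rows moved the same way, from 174 to 233 CPM. Both oxidized libraries held 2 reads of the 3 families, or 0.182 and 0.142 CPM.

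Each of the 3 families was called lower after oxidation. With 0 to 2 oxidized reads per library, they passed the expression filter through the total libraries alone. Only a lower call was therefore possible for them. The fitted log2 fold change was -5.52 (SE 0.84) for GGLTR8B, with an adjusted p of 0.0081, by edgeR's quasi-likelihood test with Benjamini-Hochberg adjustment over all 1326 features that passed the expression filter. For GGLTR8A it was -9.15 (SE 1.14, edgeR adjusted p = 0.0095), and for GGLTR9 -7.18 (SE 1.21, edgeR adjusted p = 0.018). The last 2 values are set by the small count that edgeR adds to a group at 0 and are not bounds of the fall. Each SE is the absolute log2 fold change divided by the square root of the test's F statistic. It restates the test and is no separate measure of error. Of all features tested, 57.3% were called lower and 15.7% higher, with a median log2 fold change of -5.25. Set against that share and that median, 3 lower calls of 3 say little about these families. Of the 105 TE rows tested, 18.1% were called lower and 67.6% higher, with a median log2 fold change of 4.05. These are not shares of all 241 TE rows, because rows with few total reads pass the filter only through high oxidized counts. In all, 72 TE rows had total reads and no unstranded oxidized read, while only 11 of the tested rows had a group at 0. Calls of the 3 families rest on both total libraries and on the unpaired fit. With the replicate number as a block the edgeR adjusted p was 0.30 for each of the 3. Without total replicate 1 or total replicate 2 the calls were lost. The log2 fold changes then stood at -9.18 and -8.96 for GGLTR8A, -5.75 and -5.23 for GGLTR8B, and -7.54 and -6.50 for GGLTR9. Such a fit takes the spread within groups from the oxidized libraries alone.

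As reads alone, the sizes of the 3 falls were bounded to different degrees. An unstranded count of 0 need not mean that no read was there. TguLTR5e, another TE row, had 0 unstranded and 1014 reverse reads in oxidized replicate 2. GGLTR8A had 0 reverse reads in both oxidized libraries as well. Taken at face value, a count of 0 over both oxidized libraries allows up to 3 reads, or 0.120 CPM. With the total mean taken as exact, GGLTR8A was at least 40.8-fold lower against that floor and GGLTR9 at least 10.5-fold lower. For GGLTR9 that mean joins 0.779 and 1.74 CPM, so its bound is looser than this value. Its 1 antisense read in oxidized replicate 2, absent from the unstranded counts, would loosen it further. GGLTR8B had 4 oxidized reads in all, and its mean CPM was 48.2-fold lower, with an exact 95% counting interval of 18.6- to 178-fold from the pooled reads. The bound for GGLTR9 is the weakest because only 40 total reads stand behind it, against 159 for GGLTR8A and 253 for GGLTR8B. These intervals and floors cover counting error only, the floors that of the oxidized reads alone. PCR copies of 1 molecule are not independent reads.

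Counted as molecules in place of reads, the falls were hardly bounded at all. Of rows in the table of other genes with at least 20 reads in 1 oxidized library and 0 in the other, 202 in oxidized replicate 1 had a median of 122 reads and 218 in oxidized replicate 2 a median of 130.5 reads. If that median is taken as the reads of 1 molecule, an estimate made after the data were seen and itself untested, an unchanged share would have given GGLTR8B 1.55 molecules over both oxidized libraries. GGLTR8A would have had 0.966 molecules and GGLTR9 0.249. For GGLTR8A and GGLTR9, with an unstranded count of 0 after oxidation, these expectations lie under the 3 molecules that such a count allows. On this reckoning no fall of any size was detectable for either at this depth. GGLTR8B had reads in both oxidized libraries, which makes at least 2 molecules if each library with a read holds 1. Divided by the estimate, its reads make 0.0317 molecules. Set against the 1.55 expected, these 2 reckonings differ in direction, so neither a fall nor its absence is shown. Counted as molecules, with oxidized counts divided by the estimate and rounded, which turns the 4 reads of GGLTR8B into 0, none of the 3 was called (edgeR adjusted p = 0.23 for GGLTR8B, 0.36 for GGLTR8A and 0.62 for GGLTR9; unadjusted p 0.087, 0.17 and 0.49). That fit took each total read as 1 molecule, for which no estimate was made. Under 3 molecules were expected for 15 of the 19 TE rows called lower. A count of 2 reads is also far from 122 or 130.5: 7 and 11 of the 241 TE rows had 1 to 19 reads in oxidized replicates 1 and 2, against 79 and 78 rows with 80 or more.

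A rise was bounded better than a fall. With 3 molecules allowed, the oxidized share of GGLTR8A could be at most 3.11-fold the total share and that of GGLTR9 at most 12.0-fold. The limit of GGLTR9 leaves out its 1 antisense read in oxidized replicate 2 and would be looser with it. For GGLTR8B, with 2 molecules taken as seen, the one-sided 95% Poisson limit is 6.30 molecules and the oxidized share could be at most 4.07-fold the total share. Using the quartiles of reads per molecule in place of the median moved these limits to 1.86- and 3.86-fold for GGLTR8A, 7.22- and 15.0-fold for GGLTR9, and 2.44- and 5.06-fold for GGLTR8B. Of the 55 other LTR rows with a read in the total libraries, named GGLTR, GGERV, ENS or EAV, 50 had a ratio above the limit of GGLTR8A, 48 above that of GGLTR8B and 42 above that of GGLTR9. A rise smaller than its limit could not be told from none for any of the 3. The limits hold only as far as the estimate of reads per molecule and the unstranded counts do.

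**Figure D2:**
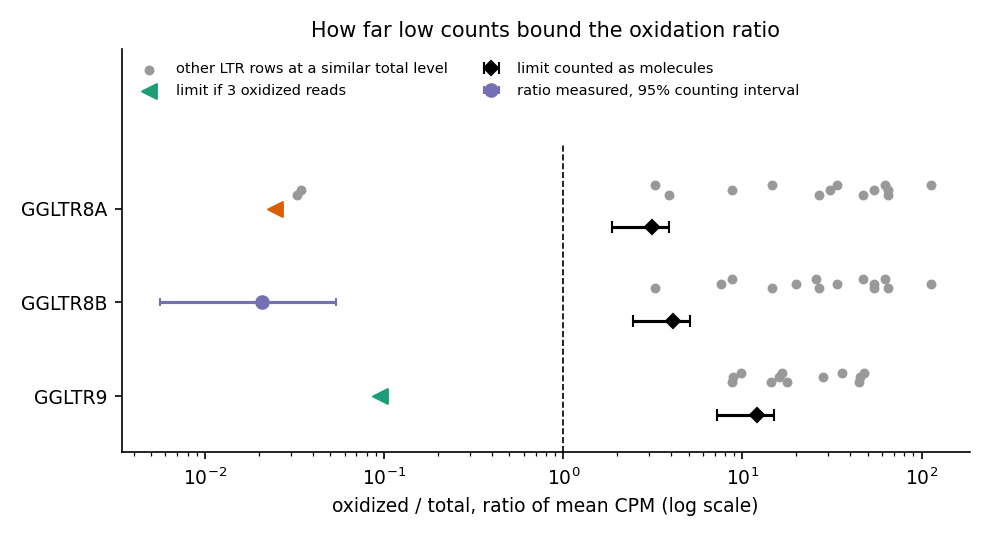
Ratio of oxidized to total mean CPM (horizontal log axis) for GGLTR8A, GGLTR8B and GGLTR9. The circle is the measured ratio of GGLTR8B with its 95% counting interval. Triangles are the limits at 3 reads for the 2 families with 0 unstranded oxidized reads. Diamonds are the upper limits counted as molecules (3 molecules for these 2 families, 6.30 for GGLTR8B), with lines over the quartiles of reads per molecule. Grey points are other LTR rows within 2-fold of the family's total level. The diamonds stand at 3.11, 4.07 and 12.0, and all grey points but 2 lie above 1.

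Most other LTR rows at a similar level before oxidation had more reads and a larger share after it. Within 2-fold of GGLTR8B's total level lay 14 other LTR rows, and all 14 had a higher mean CPM after oxidation, with 456 to 19279 oxidized reads against the 4 of GGLTR8B. Within 2-fold of GGLTR9's level lay 12 rows, again all higher, with 180 to 2071 oxidized reads against an unstranded count of 0. On the estimate of reads per molecule these ends are 1.42 molecules for GGLTR3C1 and 16.5 for GGERV28_LTR. GGLTR11-int had its 186 reads in oxidized replicate 1 alone. Within 2-fold of GGLTR8A's level lay 15 rows, of which 13 were higher and 2, GGLTR3G1 and GGLTR3G2, were lower with 3 oxidized reads each. The median ratio of oxidized to total mean CPM was 30.2, 17.2 and 30.6 among the rows near GGLTR8B, GGLTR9 and GGLTR8A. Of 25 LTR rows with at least 10 total reads and no more expected molecules than GGLTR8A, 21 had at least 80 oxidized reads. That bound is fewer than the 122 or 130.5 reads taken as a molecule. The 25 rows were taken from all rows and not from those that passed the expression filter. Most LTR rows gained share on oxidation, so they do not tell what a row of unchanged share would hold. Over all 241 TE rows, 72 had total reads and no unstranded oxidized read. Whether low abundance led to this was not tested.

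**Figure D3:**
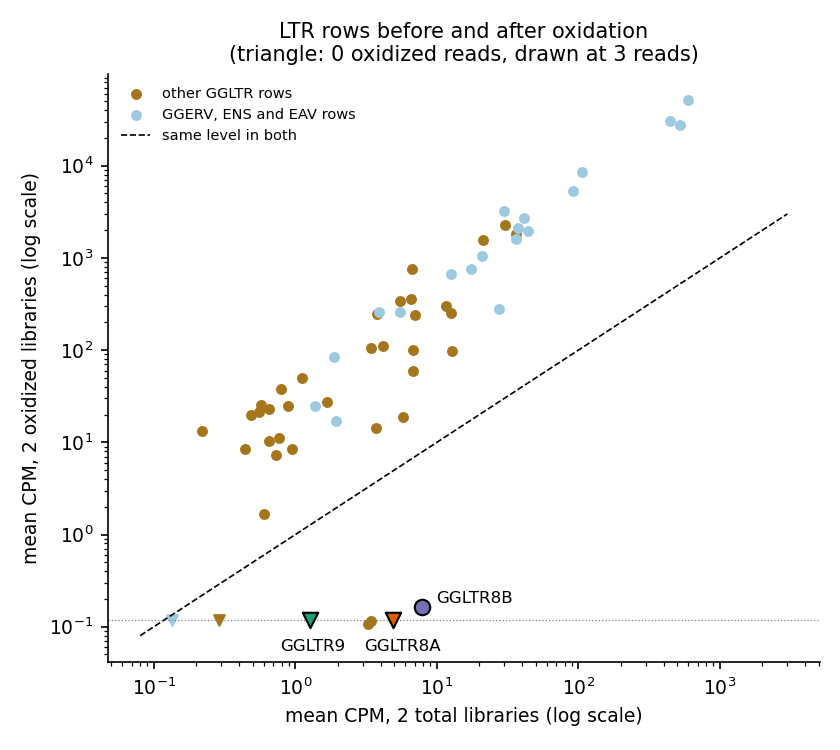
Mean CPM in the 2 oxidized libraries (vertical log axis) against mean CPM in the 2 total libraries (horizontal log axis) for GGLTR8A, GGLTR8B, GGLTR9 and the other LTR rows with a total read. Triangles mark rows with 0 unstranded oxidized reads, drawn at the floor of 3 reads (0.120 CPM), and the dashed line marks equal levels. The 3 families lie below the line together with GGLTR3G1, GGLTR3G2 and GGLTR11, which had 10 total reads. GGERV11_LTR, with 4 total reads and no oxidized read, lies near the line only because it is drawn at the floor. The other LTR rows lie above the line.

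Against the other LTR lists the direction was opposite. Of the 36 other GGLTR rows, 34 were tested, 27 rose, 2 fell and 5 did not pass, with a median log2 fold change of 4.77. With the replicate block 15 of them rose and 0 fell, and without total replicate 1 or total replicate 2 it was 7 and 0 in each case (edgeR, with 0 lower at an unadjusted p under 0.05 in all 3). Of the 20 rows named GGERV, ENS or EAV, which include the chick ERV families and the early embryonic ENS elements, 19 were tested and all 19 rose, with a median log2 fold change of 5.72. By number, 12 of the 15 GGLTR3 rows rose and 2 fell, all 3 GGLTR7 rows rose, and all 7 GGLTR10 rows rose. Rows with few total reads can pass the expression filter only through high oxidized counts, so these counts are not a share of all LTR families. The 3 other GGLTR rows with the highest mean CPM over all 4 libraries rose, GGLTR3F1 by 74.1-fold, GGLTR3F2 by 74.5-fold and GGLTR12C by 49.8-fold. For these rows that mean is set mainly by the oxidized libraries, so the choice favours rows that rose.

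The 3 families were also set against TE reads as a whole, by taking the summed TE reads as library size. On that scale the log2 fold change was -11.08 for GGLTR8B, -13.62 for GGLTR8A and -11.63 for GGLTR9 (edgeR adjusted p = 0.0023, 0.0025 and 0.0033). The median of all tested features was -10.85, lower by 5.61 than on the scale of all reads. A row that gained less share than TE reads as a whole falls on this scale, so these calls say little about the families. The 3 families held 1328 and 1619 of every 1000000 TE reads in total replicates 1 and 2. After oxidation they held 0.375 and 0.308 of every 1000000 TE reads. Both oxidized libraries lay below both total libraries on this scale too.

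GGLTR3G1 and GGLTR3G2 were the only other rows named GGLTR called lower. GGLTR3G1 had 66 and 43 total reads and 0 and 3 oxidized reads (a mean CPM 30.8-fold lower; adjusted p = 0.041 by edgeR). GGLTR3G2 had 62 and 50 total reads and 1 and 2 oxidized reads (29.2-fold lower, edgeR adjusted p = 0.0069). At an unchanged share 0.648 molecules would have been expected for GGLTR3G1 and 0.673 for GGLTR3G2, under 1 molecule as for GGLTR8A. With TMM factors 1 of these 2 calls was left.

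Patterns over the 4 libraries were compared as the root mean square difference of centred log2(CPM + 0.5). Closest to GGLTR8A were REP131 (0.20), the DNA transposon Chompy-3_Croc (0.35) and GGLTR3G2 (0.40). REP131 had 60 and 57 total reads and Chompy-3_Croc 103 and 50, and neither had an oxidized read. Closest to GGLTR8B were REP131 (0.33), Harbinger-N276_AMi (0.39), another DNA transposon, and Chompy-3_Croc (0.46), although GGLTR8B kept 4 oxidized reads and these rows none. Closest to GGLTR9 were Charlie12_GG (0.26), MIR_Aves1 (0.30) and Chompy-1_Croc (0.35), with 76, 36 and 70 total reads and 6, 0 and 1 oxidized reads. With 4 libraries this likeness describes little more than the ratio of the groups.

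GGLTR8A and GGLTR8B differed in the strand of their reads before oxidation, whereas GGLTR9 showed no steady strand balance. Antisense reads, those of the reverse-strand tables, were 46 of 78 and 53 of 81 for GGLTR8A in total replicates 1 and 2, or 59.0% and 65.4% (exact 95% binomial intervals 47.3 to 70.0% and 54.0 to 75.7%). For GGLTR8B they were 38 of 115 and 37 of 138, or 33.0% and 26.8% (24.6 to 42.4% and 19.6 to 35.0%). The intervals of GGLTR8A and GGLTR8B did not overlap in either library, but they cover counting error only. GGLTR8B was mostly sense in both libraries, and the share of GGLTR8A was over 50% in both, with an interval that includes 50% in total replicate 1. Mean antisense shares were 62.2% ± 4.57 and 29.9% ± 4.41 (SD, n = 2), a gap larger than either SD.

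GGLTR9 had no antisense read of 14 in total replicate 1 and 14 of 26 in total replicate 2, or 0% and 53.8% (intervals 0 to 23.2% and 33.4 to 73.4%). Reads that were not antisense numbered 14 and 12 in these libraries, or 0.779 and 0.803 CPM. The gap in GGLTR9 between the total libraries was therefore one of antisense reads, whereas its other reads were level. For GGLTR8A the reads that were not antisense were also level, at 1.78 and 1.87 CPM, while the antisense reads went from 2.56 to 3.55 CPM. For GGLTR8B it was the reverse, with antisense reads at 2.12 and 2.48 CPM and the others at 4.29 and 6.76 CPM. These strand levels rest on few reads, are given without intervals and were not tested. Reads that were not antisense are unstranded minus reverse counts, a difference that was -1 for GGLTR9 in oxidized replicate 2.

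**Figure D4:**
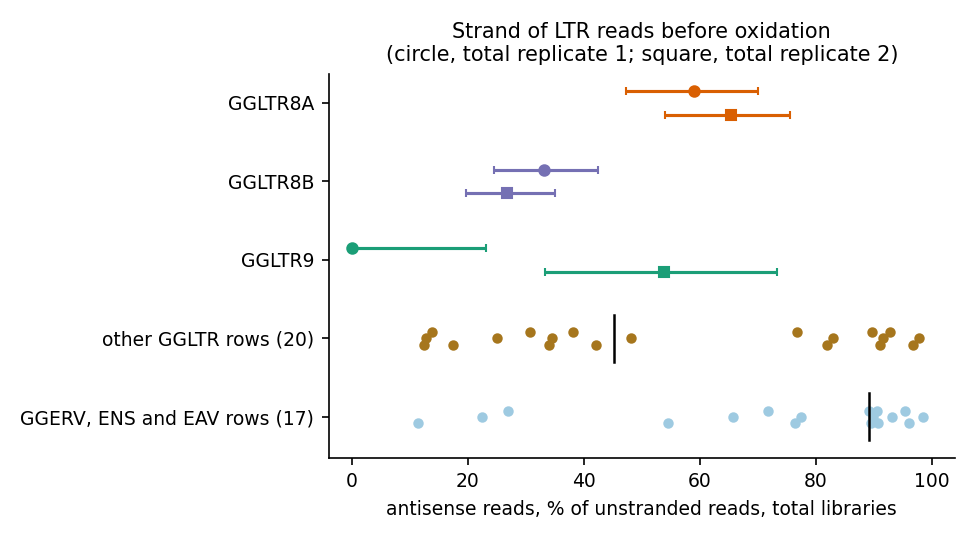
Antisense reads as a percent of unstranded reads in the total libraries (horizontal axis) for GGLTR8A, GGLTR8B and GGLTR9 in each library with exact 95% binomial intervals, and for other LTR rows with at least 20 reads in each total library as pooled shares, with a line at the median. GGLTR8A lies at 59.0 and 65.4%, GGLTR8B at 33.0 and 26.8%, and the medians of the other GGLTR rows and of the GGERV, ENS and EAV rows at 45.1 and 89.3%.

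Neither strand balance was outside the range of other LTR rows. Among the 20 other GGLTR rows with at least 20 reads in each total library the antisense share ran from 12.5 to 97.9% with a median of 45.1%. In that list 11 of 20 rows had a lower share than GGLTR8A and 5 of 20 a lower share than GGLTR8B. The 17 GGERV, ENS and EAV rows with that depth had a median of 89.3% and a range from 11.3 to 98.5%, with 4 rows below GGLTR8A and 3 below GGLTR8B. GGLTR3G1 and GGLTR3G2, the other fallers named GGLTR, were 12.8% and 12.5% antisense in the total libraries, lower than both GGLTR8 families.

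After oxidation 3 of the 4 GGLTR8B reads were antisense, 2 of 2 in oxidized replicate 1 and 1 of 2 in oxidized replicate 2. The exact 95% binomial intervals, 15.8 to 100% and 1.26 to 98.7%, span nearly the whole range, so no shift in strand was detectable at this depth (75% against 29.9%, exact two-sided permutation test over the 4 libraries, p = 0.333, the smallest that 2 libraries against 2 allow). GGLTR9 had 1 antisense read in oxidized replicate 2 although its unstranded count there was 0, so a reverse-strand count can exceed the unstranded count of the same row. By antisense reads alone GGLTR8A went from 46 and 53 reads to none and GGLTR8B from 38 and 37 to 2 and 1. Both were called lower, GGLTR8A at a log2 fold change of -8.47 (SE 0.95; adjusted p = 0.00090 by edgeR) and GGLTR8B at -4.13 (SE 0.63; adjusted p = 0.0013 by edgeR). GGLTR9 had too few antisense reads to be tested. Of the 85 TE rows tested on this strand 14.1% were called lower and 76.5% higher, and of all 210 features 33.3% were called lower. Here too, rows with few total reads pass the filter only through high oxidized counts. GGLTR8A and GGLTR8B passed it through the total libraries alone, so only a lower call was possible on this strand as well. With the replicate block neither antisense call held (adjusted p = 0.13 for each by edgeR) and neither held without total replicate 1 (0.062 for GGLTR8A and 0.23 for GGLTR8B). That of GGLTR8B was also lost without total replicate 2 (adjusted p = 0.23 by edgeR).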

How the data were processed

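Raw read counts per feature were deposited for 4 libraries. The submitters' processing notes name featureCounts and the genome build galGal6. The aligner, the annotation, the versions and the handling of multiply mapped reads are not given in the sources used here. Reads of families alike in sequence may therefore be split in an uncertain way. How alike GGLTR8A and GGLTR8B are in sequence was not checked. All 48 tables (6 per library on each of the unstranded and reverse strands) were read. Reverse counts were read as antisense because tRNA had at most 65 reads there. In 190 rows, 4 of them TE rows, reverse counts exceeded unstranded counts in some library.

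One fit over all tables was made in R 4.3.3 (edgeR 4.0.16, glmQLFit and glmQLFTest), with summed unstranded counts as library size, no TMM factor and the default expression filter, which kept 1326 features. A call is an adjusted p under 0.05. The SE of a log2 fold change was derived as its absolute value over the square root of the F statistic. Exact intervals came from scipy 1.17.1. The fit was tested on simulated data in which most features did not change. In these libraries most tested features were called, so the simulation does not cover that case. DESeq2 1.42.0, other library sizes, no filter, a replicate block and leaving out each library were alternatives. Every member was named, with its 3 most alike TE rows, the other GGLTR rows called lower and the 3 with the highest mean CPM over all 4 libraries. Members, lists and alternatives were chosen with earlier results of these data known. Rows near a member in level, and the limits in molecules, were set after the data were seen.

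The reported fit is unpaired. Libraries with the same number were paired in the replicate block alone, because the series text has every RNA sample split for oxidation. Their deviations from the group means did not correlate (r = 0.017 over 1460 features).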

Additional observations from a re-analysis of the deposited data

How the results depend on the processing

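The log2 fold changes of the 3 families kept their direction under every alternative run. For GGLTR8A and GGLTR9, with unstranded counts of 0 after oxidation, no alternative could turn the direction. Counting as molecules could not turn that of GGLTR8B either, because its oxidized reads round to 0. Calls of the 3 families held with TMM factors, DESeq2, no expression filter and each other library size. They also held without either oxidized library, where the spread within groups comes from the total libraries alone. With the replicate block GGLTR8A stood at -9.15, GGLTR8B at -5.51 and GGLTR9 at -7.22, and counted as molecules at -8.34, -9.01 and -6.38, none of them called. Leaving out 1 library gave -9.26 to -8.96, -5.75 to -5.23 and -7.54 to -6.50. On the antisense strand the block gave -8.49 for GGLTR8A and -4.18 for GGLTR8B, and leaving out 1 library -8.57 to -8.20 and -4.86 to -3.59. The number of the 3 families called lower was 0 with the block and 0 counted as molecules (edgeR, with 0 at an unadjusted p under 0.05 in each), and 0 to 3 with 1 library left out. With the block the SE was 5.42 for GGLTR8A, 3.55 for GGLTR8B and 4.89 for GGLTR9, against 1.14, 0.84 and 1.21 in the reported fit. These SEs follow from the F statistic and restate the test. The block leaves 1 residual degree of freedom, as do the fits without a library. Why the calls were lost with the block was not tested.

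Among the other GGLTR rows, 1 was lower with TMM factors, 9 with TE reads as library size, 0 with the block, 0 as molecules (edgeR, with 0 at an unadjusted p under 0.05 in each), and 0 to 3 with 1 library left out. Those higher numbered 0 with TE reads as library size (edgeR, 0 unadjusted), 15 with the block and 7 to 32 with 1 library left out. With TE reads as library size 2 GGERV, ENS and EAV rows were lower and 1 higher. The 3 families summed to 13.96 CPM in total libraries, to 49.4 with miRNA left out of the sum, and to 1474 of every 1000000 TE reads, against 0.342 of every 1000000 TE reads after oxidation. Relative to the fit reported, the median log2 fold change of all features moved by -0.19 with TMM factors, -0.49 with DESeq2, -1.82 with miRNA and 0.44 with rRNA and tRNA left out, which did not end a call of the 3. The antisense share of GGLTR9 in the total libraries, 26.9%, becomes 0% or 53.8% with 1 total library left out. At 14 to 138 total reads and at most 2 oxidized reads per family, depth limits the size of each fall in reads. Counted as molecules, a fall was not shown for any of the 3, and the strand after oxidation stays unknown.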
